A study of Mus musculus with 12 samples.

Results

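Besides *Pkd1* and *Pkd2*, several genes are known from inherited cystic disease of the kidney or liver. 10 of them were followed here in mouse collecting duct cells that lack *Pkd1* or *Pkd2*: *Pkhd1*, *Bicc1*, *Lrp5*, *Ganab*, *Prkcsh*, *Dnajb11*, *Sec63*, *Sec61b*, *Alg8* and *Alg9*. They were chosen by name, from their known link to cystic disease, at a time when earlier results of these data were known. All 10 were found among the 47642 genes listed. mIMCD3 cells are a line of mouse inner medullary collecting duct, taken from healthy mice that carry the early region of the virus SV40, which keeps the cells dividing. All 3 genotypes share that transgene: wild-type cells, 1 Pkd1-/- clone in which CRISPR removed both copies of *Pkd1*, and 1 Pkd2-/- clone in which a TALEN pair removed part of *Pkd2*. Each genotype gave 4 libraries from different dishes, harvested 4 days after full confluency, so that the spread between libraries does not cover the spread between clones. The question was how each of these disease genes was expressed once *Pkd1* or *Pkd2* was lost.

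*Pkd1* encodes polycystin-1, a large glycoprotein of the primary cilium, and *Pkd2* encodes polycystin-2, its channel partner. Most of the other disease genes act earlier, in the endoplasmic reticulum (ER), where new membrane proteins enter through the Sec61 channel, receive a sugar tree on asparagine, and are folded under the control of glucose trimming and of the chaperone BiP. *Alg8* and *Alg9* encode transferases that build the sugar tree, *Sec61b* and *Sec63* encode parts of the entry machinery, *Ganab* and *Prkcsh* encode the catalytic and the regulatory subunit of glucosidase II, and *Dnajb11* encodes a co-chaperone of BiP. The maturation of polycystin-1 is known to depend on this route. *Pkhd1* encodes fibrocystin, a ciliary membrane protein that is mutated in recessive polycystic kidney disease, *Bicc1* encodes an RNA-binding protein, and *Lrp5* encodes a co-receptor for Wnt ligands.

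The deposited values are normalized counts, that is, reads per gene divided by a factor for the depth of the library. They summed to between 25966273 and 28027792 per library, and an estimated 23200000 to 30300000 reads per library stood behind them. *Pkd1* was lower in the Pkd1-/- clone by a log2 fold change of -4.21, and the total of *Pkd2* differed by 0.01 between the Pkd2-/- clone and wild-type cells, a total that includes the exons left in place and so does not check that label. All 8 markers of kidney epithelium were expressed, with summed normalized counts of 69504 to 80594. Single ones among them differed between genotypes. In wild-type, Pkd1-/- and Pkd2-/- libraries, *Krt19* had 4030 to 4850, 1278 to 1418 and 1392 to 1456. In that order, *Pax2* had 1843 to 2026, 1744 to 1837 and 2660 to 3263. *Pax8* had 4023 to 4315, 3787 to 4072 and 5872 to 6145, and *Krt8* 8039 to 9435, 8108 to 8443 and 9022 to 10017. Of the 12 markers of collecting duct principal cells, *Aqp2*, *Aqp4*, *Avpr2* and *Fxyd4* were at 3 or less in every library. *Aqp3*, *Scnn1b* and *Elf5* reached at most 6, 7 and 12 in any library. The summed principal cell markers lay between 2899 and 3301 in wild-type, 2261 and 2424 in Pkd1-/- and 1974 and 2104 in Pkd2-/- libraries. Single markers did not all follow the sums. In the same order, *Gata3* had 176 to 248, 42 to 56 and 294 to 430, and *Hsd11b2* 74 to 84, 106 to 121 and 50 to 68. *Scnn1a* had 68 to 80, 63 to 91 and 112 to 131, and *Scnn1g* 876 to 988, 249 to 347 and 243 to 265. *Hoxb7* had 1602 to 1975, 1659 to 1897 and 1194 to 1372. The part of these markers in the results for the 10 genes was not tested. The markers *Pdgfra* and *Lum* of fibroblasts, *Cdh5*, *Kdr* and *Tek* of endothelium, *Adgre1* and *Cd3e* of leukocytes, and all 3 of the thick ascending limb were likewise at 3 or less throughout. Other markers of these cell types were detected at low level. The 6 fibroblast markers summed to 25 to 55 in wild-type, 23 to 37 in Pkd1-/- and 15 to 99 in Pkd2-/- libraries, with *Dcn*, *Col1a1* and *Col1a2* above 3 in some or all libraries. The 5 leukocyte markers summed to 59 to 73, 47 to 65 and 54 to 69, mostly *Cd68*, and the 4 endothelial markers, with *Pecam1*, to 1 to 4, 0 to 9 and 1 to 8. In bulk RNA, fewer cells with a transcript and less of it per cell cannot be told apart.

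Loss of *Pkd2* went with a change in most of the 10 genes, and loss of *Pkd1* with a change in fewer. A gene passed when limma gave it an adjusted p under 0.05, in a fit on log2(normalized count + 1) that covered 18552 genes, those whose mean reached 1. In Pkd1-/- against wild-type cells, 4 of the 10 genes passed, with *Ganab* and *Dnajb11* higher and *Pkhd1* and *Bicc1* lower, while 27.1% of all genes tested passed (13.6% higher and 13.5% lower). In Pkd2-/- against wild-type cells, 8 passed, of which 7 were higher and *Alg9* was lower, while 42.3% of all genes tested passed (20% higher and 22.3% lower). The 10 genes are mostly well expressed, and of the 7923 genes whose mean lay in the range of theirs, 37.9% and 60.3% passed in these comparisons. In Pkd1-/- cells the share of the 10 genes that passed was thus close to that of genes of like level, and in Pkd2-/- cells it was above it, by a margin that was not tested. Over the 10 genes, the log2 fold change had a median of 0.07 in Pkd1-/- and of 0.32 in Pkd2-/- cells, beside 0.01 and -0.01 over all genes tested. The libraries of mutant and wild-type did not overlap for 4 genes in Pkd1-/- cells, where this held for 27.1% of all genes tested, and for 7 genes in Pkd2-/- cells, where it held for 37.2%. Both comparisons use the same wild-type libraries.

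**Figure D1:**
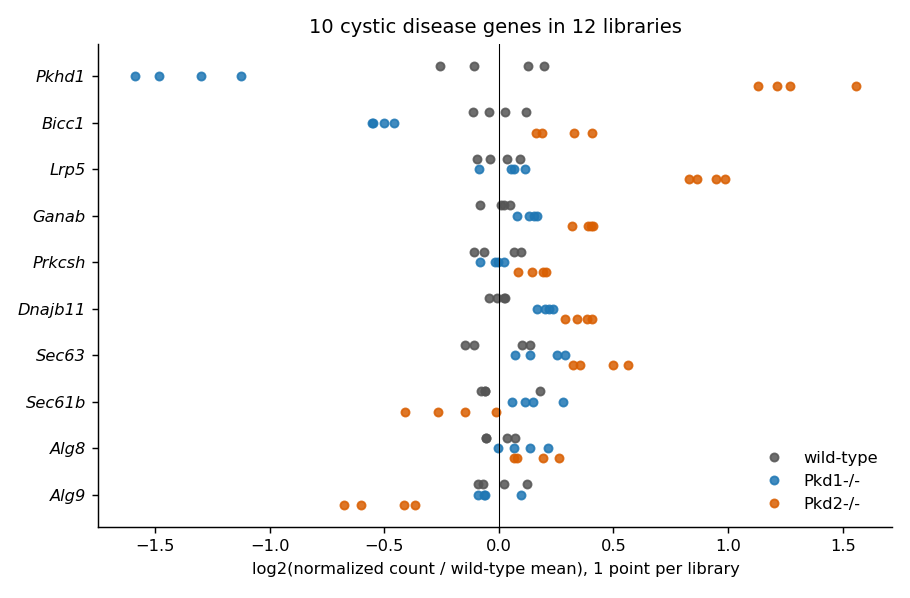
Normalized count of each gene in each of the 12 libraries, on the x axis as log2 of the ratio to the wild-type mean of that gene, with 1 point per library and colour for genotype. *Pkhd1* is lowest in all Pkd1-/- and highest in all Pkd2-/- libraries, *Lrp5* stands apart in Pkd2-/- libraries, and *Alg9* is lower in them.

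Between the mutants, 9 of the 10 genes passed, 7 higher and 2 lower in Pkd2-/- than in Pkd1-/- cells, with a median of 0.21, while 46.3% of all genes tested passed (21.9% higher and 24.3% lower), and 64% of the genes of like level. The mutants did not overlap for 9 genes, as for 41.8% of all genes tested. The study made its calls with DESeq2, whereas limma was used here, so the shares below are not those of the study. The stricter call of the study also asks that the change reach 1 on the log2 scale, up or down. *Pkhd1* alone met it, in each of the 3 comparisons, where 6.24%, 9.62% and 11.8% of all genes tested did, and 1.41%, 3.17% and 4.25% of those of like level. Among all genes tested, 3719 were higher and 4133 lower in Pkd2-/- than in wild-type cells, and after a per-library correction for exon length and GC content 5531 were higher and 3132 lower. The correction moved the median of all genes tested from -0.01 to 0.10 in Pkd2-/- and from 0.01 to 0.03 in Pkd1-/- cells, so counts after it include that shift of all genes. With the same correction, 8 of the 10 genes were higher and 1 was lower in Pkd2-/- cells. In Pkd1-/- cells 4 were higher and 2 lower, beside 3310 higher and 2675 lower among all genes tested.

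*Pkhd1* moved most, and in opposite directions in the 2 mutants. The gene (ENSMUSG00000043760) lies on chromosome 1 from 20057779 to 20618064, on the minus strand, in GRCm38. Its normalized counts were 552, 499, 650 and 682 in the wild-type libraries, 198, 242, 213 and 273 in the Pkd1-/- libraries, and 1380, 1436, 1303 and 1756 in the Pkd2-/- libraries. All Pkd1-/- libraries were below, and all Pkd2-/- libraries above, every wild-type library. *Pkhd1* was 2.57-fold lower in Pkd1-/- than in wild-type cells (log2 fold change -1.36 ± 0.11, SE, limma adjusted p = 3.015e-08). It was 2.47-fold higher in Pkd2-/- than in wild-type cells (1.30 ± 0.11, limma adjusted p = 2.49e-08). Between the mutants the difference was 6.34-fold (2.66 ± 0.11, limma adjusted p = 6.40e-13). With 4 libraries against 4, the two-sided exact permutation test gave p = 0.0286 in each comparison, the smallest it can give. Leaving out any 1 library kept the log2 fold changes between -1.44 and -1.29 in Pkd1-/- and between 1.21 and 1.37 in Pkd2-/- cells. The genes within 5 Mb of *Pkhd1* had median log2 fold changes of -0.08 in both mutants.

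Other cystic kidney genes varied in direction. *Cys1*, which encodes the ciliary protein cystin, had normalized counts of 1001, 890, 865 and 1120 in wild-type, 356, 338, 396 and 363 in Pkd1-/-, and 1183, 1099, 1211 and 1244 in Pkd2-/- libraries. It was lower in Pkd1-/- cells by a log2 fold change of -1.41 (limma adjusted p = 1.07e-10) and differed by 1.70 between the mutants (limma adjusted p = 1.99e-12). *Glis3*, a transcription factor whose loss gives cystic kidneys, was lower in Pkd1-/- (-0.28, limma adjusted p = 0.0184) and higher in Pkd2-/- cells (0.48, limma adjusted p = 0.000162). *Tsc1*, of tuberous sclerosis, was higher in Pkd2-/- cells (0.71, limma adjusted p = 9.14e-08), had a value of -0.02 in Pkd1-/- cells (limma adjusted p = 0.869), and differed between the mutants by 0.73 (limma adjusted p = 4.66e-08). Of the 12 genes in this list, 1 was higher and 5 were lower in Pkd1-/- cells, where 27.1% of all genes tested passed, and 5 were higher and 4 lower in Pkd2-/- cells, where 42.3% did. The median was -0.09 and 0.19. *Lrp2*, which encodes the endocytic receptor megalin and is used as a proximal tubule marker, moved in the same order as *Pkhd1*, with 474 to 555 normalized counts in wild-type, 25 to 63 in Pkd1-/- and 738 to 1217 in Pkd2-/- libraries. The 5 proximal tubule markers summed to 480 to 557, 33 to 71 and 744 to 1222, mostly *Lrp2*, with *Slc34a1* and *Slc22a6* at 3 or less in every library. The other markers did not share its order. *Cubn* had 2 to 6 normalized counts in wild-type, 8 in every Pkd1-/- and 2 to 5 in Pkd2-/- libraries, and *Slc5a2* had 0, 0 and 0 to 4. The part of these markers in the result for *Pkhd1* was not tested.

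Among 13702 genes whose mean reached 10 normalized counts, those whose values over the 12 libraries were most like those of *Pkhd1*, relative to wild-type, were *Cxcl10*, *Rasl11b* and *1700019D03Rik*. Their root mean square differences from it were 0.214, 0.215 and 0.259 on the log2 scale. *Cxcl10*, a chemokine induced by interferon, had 372 to 462 normalized counts in wild-type, 152 to 171 in Pkd1-/- and 805 to 977 in Pkd2-/- libraries. *Rasl11b*, a small GTPase, had 1632 to 1781, 711 to 761 and 4622 to 5065.

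**Figure D2:**
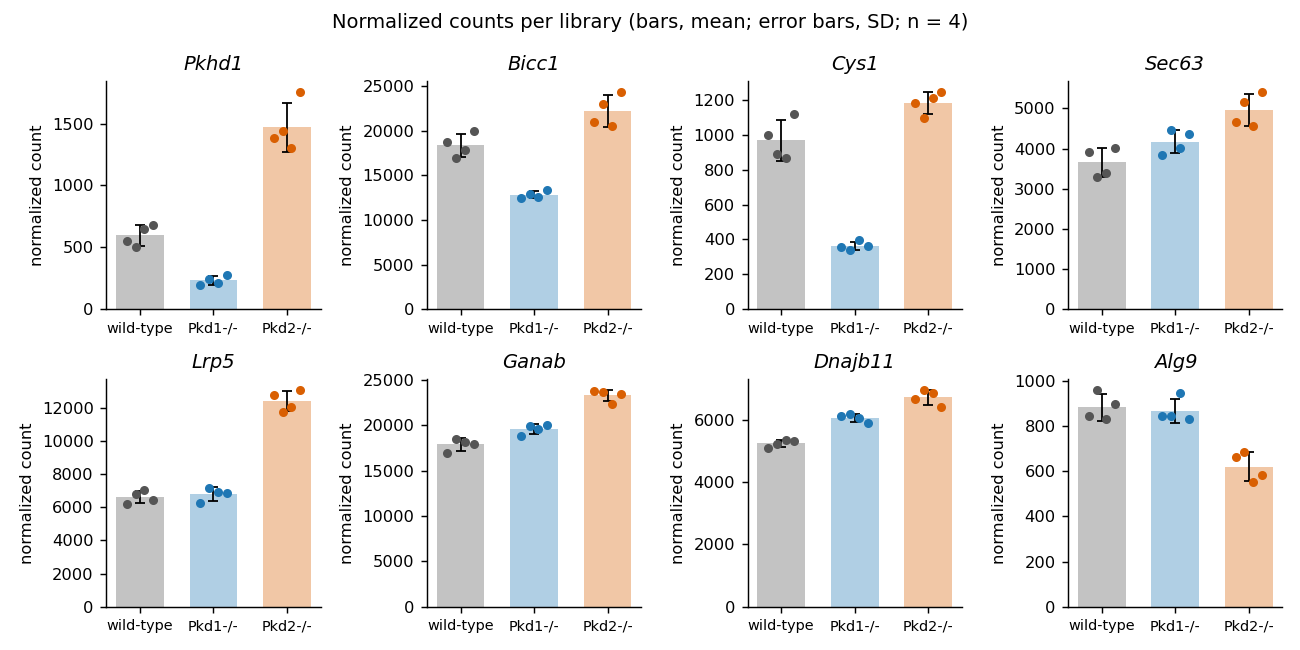
Normalized counts of 8 genes by genotype, with 1 point per library, bars for the mean and error bars for the SD (n = 4 libraries), each y axis starting at 0. *Pkhd1* and *Bicc1* are lowest in Pkd1-/- and highest in Pkd2-/- libraries, and *Lrp5* is raised in Pkd2-/- libraries alone among the 2 mutants.

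*Bicc1* shared the directions of *Pkhd1* with smaller changes. The gene (ENSMUSG00000014329) lies on chromosome 10 from 70922832 to 71159700, on the minus strand. Its normalized counts were 18716, 16959, 17800 and 19914 in wild-type, 12499, 12947, 12557 and 13361 in Pkd1-/-, and 20929, 23049, 20551 and 24352 in Pkd2-/- libraries. The 3 genotypes did not overlap. *Bicc1* was 1.43-fold lower in Pkd1-/- (log2 fold change -0.51 ± 0.06, SE, limma adjusted p = 1.80e-06) and 1.21-fold higher in Pkd2-/- cells (0.28 ± 0.06, limma adjusted p = 0.000794), both relative to wild-type. It was 1.73-fold higher in Pkd2-/- than in Pkd1-/- cells. The antisense gene *4930533K18Rik* shares 349 exon bases with *Bicc1* and had at most 4 normalized counts in any library.

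The Bicc1 protein binds scaffold proteins of the ciliary inversin compartment. Of 6 genes for these partners, 0 passed in Pkd1-/- cells with limma. An unadjusted limma p under 0.05 was found for 2 of 6, and the share of all genes under that threshold was not counted. In Pkd2-/- cells, *Hif1an*, a hydroxylase that modifies ankyrin repeats, was higher (0.37, limma adjusted p = 2.70e-06), and the scaffolds *Anks6* (-0.39, limma adjusted p = 0.00244) and *Invs* (-0.20, limma adjusted p = 0.0326) were lower. Over the 6 genes the medians were 0.02 (Pkd1-/-) and -0.15 (Pkd2-/-). Among all genes tested, 27.1% passed in Pkd1-/- and 42.3% in Pkd2-/- cells. Against Pkd1-/- cells, the kinase gene *Nek8* was lower in Pkd2-/- cells as well (-0.32, limma adjusted p = 0.00539).

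*Lrp5* was raised in Pkd2-/- cells and differed little in Pkd1-/- cells. The gene (ENSMUSG00000024913) lies on chromosome 19 from 3584828 to 3686564, on the minus strand. Its normalized counts were 6190, 6775, 7063 and 6446 in wild-type, 6242, 7155, 6937 and 6873 in Pkd1-/-, and 12764, 11746, 12039 and 13097 in Pkd2-/- libraries. Every Pkd2-/- library was above all 8 others, which overlapped. *Lrp5* was 1.88-fold higher in Pkd2-/- than in wild-type cells (log2 fold change 0.91 ± 0.05, SE, limma adjusted p = 1.03e-10), just short of the fold threshold. The value in Pkd1-/- cells was 0.04 ± 0.05 (limma adjusted p = 0.659), and the mutants differed by 0.87 (limma adjusted p = 1.49e-10). Genes most like *Lrp5* over the 12 libraries were *Adora1*, *P3h2* and *Prom1*, with root mean square differences of 0.0755, 0.0773 and 0.0846 on the log2 scale. *Prom1*, which encodes the membrane glycoprotein prominin-1, had 9678 to 10238 normalized counts in wild-type, 9664 to 10119 in Pkd1-/- and 17491 to 18682 in Pkd2-/- libraries.

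Chromosome 19, which carries *Lrp5* and *Ganab*, was shifted upward as a whole in both mutants. Its 481 genes tested had medians of 0.18 (Pkd1-/- cells) and 0.28 (Pkd2-/- cells) on the log2 scale, and 373 and 367 of them were higher than in wild-type cells. Within 5 Mb of *Lrp5*, 155 genes had medians of 0.21 and 0.24. The value of *Lrp5* in Pkd2-/- cells was larger than these medians, and its value in Pkd1-/- cells was smaller. The medians of the other 6 chromosomes that carry the genes followed here lay between -0.08 and 0.04 in both comparisons. The part of the chromosome-wide shift in the values of *Lrp5* and *Ganab* was not tested.

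**Figure D3:**
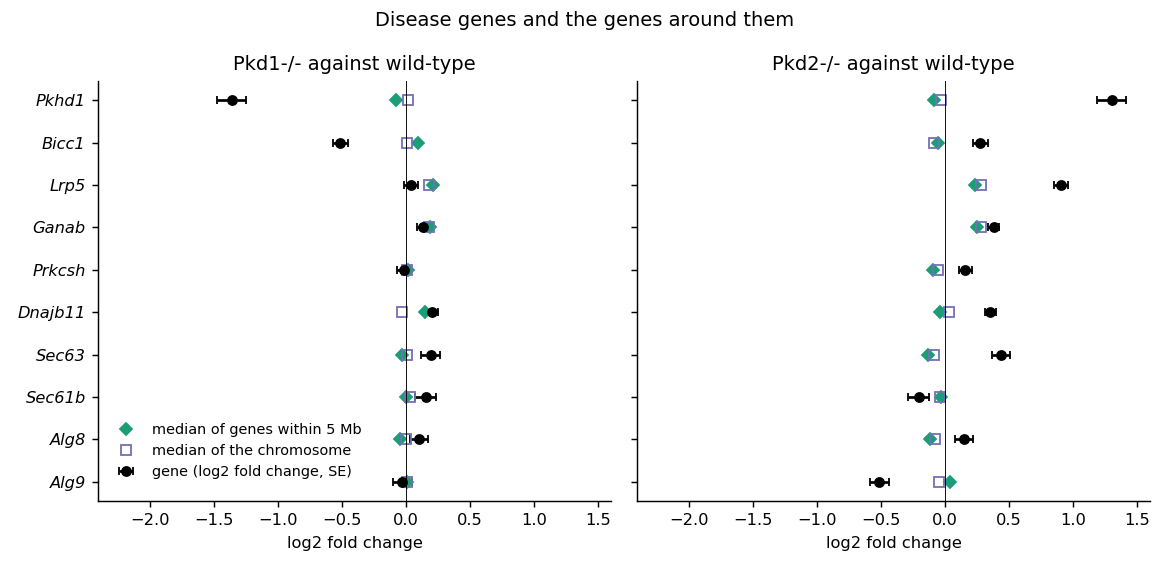
Log2 fold change of each gene (black, with SE) in Pkd1-/- (left) and Pkd2-/- cells (right) against wild-type cells, beside the median of the genes within 5 Mb (green) and of the whole chromosome (purple squares). For *Ganab* in Pkd1-/- cells the gene and both medians lie close together, and for *Pkhd1* and for *Lrp5* in Pkd2-/- cells the gene stands away from them.

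*Lrp5* acts with a paralogue and is held back by secreted antagonists. Of 13 genes for such partners or for proteins related to them, 8 were expressed enough to be tested. The related receptors *Lrp6* (0.27, limma adjusted p = 0.0223) and *Lrp4* (0.82, limma adjusted p = 5.57e-05) and the scaffold gene *Axin1* (0.33, limma adjusted p = 2.96e-05) were higher in Pkd2-/- than in wild-type cells. *Sostdc1*, a secreted antagonist of Wnt and BMP ligands, had 153, 147, 131 and 150 normalized counts in wild-type, 122, 106, 113 and 94 in Pkd1-/-, and 0, 0, 1 and 1 in Pkd2-/- libraries. The sums of 581 and 2 give a ratio of 290.5 between wild-type and Pkd2-/- cells, with a 95% counting interval of 80.1 to 2404. Such an interval, also given for *Dkk3* below, treats summed normalized counts as reads and does not cover the spread between dishes or clones. *Dkk3*, of the Dickkopf family, had 43, 38, 40 and 33 in wild-type, 2, 4, 3 and 2 in Pkd1-/-, and 31, 18, 40 and 34 in Pkd2-/- libraries. It was lower in Pkd1-/- than in wild-type cells by a ratio of 14.0 (95% counting interval 7.61 to 28.6), and was the 1 gene of the 8 that passed there. *Dkk3* was thus near 0 in Pkd1-/- libraries and *Sostdc1* in Pkd2-/- libraries. Whether either acts on *Lrp5* in these cells was not tested. Over the 8 genes the medians were 0.03 (Pkd1-/-) and 0.19 (Pkd2-/-). Among all genes tested, 27.1% passed in Pkd1-/- and 42.3% in Pkd2-/- cells.

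Glucosidase II trims glucose from the sugar tree of new glycoproteins. The values of its subunit genes differed, and the difference between the genes was not tested. *Ganab* (ENSMUSG00000071650, chromosome 19 from 8898071 to 8916672, plus strand) had normalized counts of 16887, 18464, 18157 and 17977 in wild-type, 18856, 19884, 19551 and 20029 in Pkd1-/-, and 23754, 23610, 22326 and 23382 in Pkd2-/- libraries. The 3 genotypes did not overlap, and wild-type libraries were lowest. *Ganab* was 1.30-fold higher in Pkd2-/- than in wild-type cells (log2 fold change 0.38 ± 0.04, SE, limma adjusted p = 7.63e-07), beside a median of 0.25 for the 210 genes within 5 Mb. In Pkd1-/- cells it was 1.10-fold higher (0.13 ± 0.04, limma adjusted p = 0.0285), beside a local median of 0.19. That call was lost when wild-type replicate 1 (limma adjusted p = 0.0871) or Pkd1-/- replicate 2, 3 or 4 (limma adjusted p = 0.0629 to 0.0797) was left out.

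*Prkcsh* (ENSMUSG00000003402, chromosome 9 from 22002806 to 22014222, plus strand), mutated in polycystic liver disease, had normalized counts of 4688, 5240, 5127 and 4542 in wild-type, 4630, 4972, 4842 and 4890 in Pkd1-/-, and 5643, 5414, 5591 and 5198 in Pkd2-/- libraries. The lowest Pkd2-/- library was below the highest wild-type library. The log2 fold change was 0.16 ± 0.05 (SE) in Pkd2-/- cells (limma adjusted p = 0.0160, two-sided exact permutation p = 0.0571). That call was lost without wild-type replicate 1 (limma adjusted p = 0.0505) or 4 (limma adjusted p = 0.0635), and when libraries were scaled to the same upper quartile (limma adjusted p = 0.0649). After the correction for exon length and GC content the value was larger, at 0.27 (limma adjusted p = 5.56e-06), beside 0.46 for *Ganab* (limma adjusted p = 1.42e-09) and a median of 0.10 over all genes. In Pkd1-/- cells the value was -0.02 (limma adjusted p = 0.852). Per kb of exon, the ratio of *Ganab* to *Prkcsh* lay between 2.762 and 3.102 in wild-type, 3.14 and 3.21 in Pkd1-/-, and 3.13 and 3.53 in Pkd2-/- libraries. The ratio was above the wild-type range in every mutant library. Chromosome 19 of *Ganab* had the upward shift given above, and chromosome 9 of *Prkcsh* had medians of 0.01 (Pkd1-/-) and -0.05 (Pkd2-/-). The part of this in the ratio was not tested.

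Of 19 further genes of glycoprotein folding and quality control, 12 were higher and 1 was lower in Pkd2-/- cells, with a median of 0.14, whereas 4 were higher and 3 lower in Pkd1-/- cells, with a median of -0.04. Over all genes tested, 20% were higher and 22.3% lower in Pkd2-/- cells, and 13.6% higher and 13.5% lower in Pkd1-/- cells. Of the genes with a mean in the range of the 10 disease genes, 60.3% and 37.9% passed in these comparisons. *Derl3*, which acts in the removal of misfolded ER proteins, had 273, 329, 306 and 366 normalized counts in wild-type, 447, 447, 442 and 386 in Pkd1-/-, and 747, 702, 836 and 688 in Pkd2-/- libraries. Its log2 fold changes were 0.44 (limma adjusted p = 0.00110) and 1.22 (limma adjusted p = 2.52e-09). *Pdia3*, a disulfide isomerase that works with calnexin and calreticulin, was 0.64 higher in Pkd2-/- cells (limma adjusted p = 5.44e-10). *Uggt2*, a glucosyltransferase that senses unfolded glycoproteins, was the gene that was lower (-0.44, limma adjusted p = 0.00196). *Canx*, the lectin chaperone calnexin, differed by 0.41 between the mutants (limma adjusted p = 1.13e-05).

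*Dnajb11*, the co-chaperone gene, was higher in both mutants. The gene (ENSMUSG00000004460) lies on chromosome 16 from 22857845 to 22879634, on the plus strand. Its normalized counts were 5095, 5217, 5342 and 5318 in wild-type, 6098, 6182, 6036 and 5889 in Pkd1-/-, and 6643, 6959, 6838 and 6405 in Pkd2-/- libraries, with no overlap between genotypes. The log2 fold changes were 0.21 ± 0.04 (SE) in Pkd1-/- (limma adjusted p = 0.000735) and 0.36 ± 0.04 in Pkd2-/- cells (limma adjusted p = 9.27e-07). The median of the 73 genes within 5 Mb was 0.15 and -0.04. The mutants differed by 0.15 (limma adjusted p = 0.00550), which no longer passed when libraries were scaled to the same upper quartile (limma adjusted p = 0.0523).

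Promoters of 8 of the 10 genes were matched by symbol, and those of *Lrp5* and *Bicc1* were not. The *Dnajb11* promoter is shown because it alone among the 8 held a form of the ER stress response element, the sites of the factors ATF6 and XBP1. It comes from RefSeq on GRCm38.p6 (chr16:22857595-22857894, plus strand, written 5′ to 3′ along the gene, 250 bases before the start and 50 after), and the element of the second type, ATTGGNCCACG, is in capitals.
*Dnajb11* promoter: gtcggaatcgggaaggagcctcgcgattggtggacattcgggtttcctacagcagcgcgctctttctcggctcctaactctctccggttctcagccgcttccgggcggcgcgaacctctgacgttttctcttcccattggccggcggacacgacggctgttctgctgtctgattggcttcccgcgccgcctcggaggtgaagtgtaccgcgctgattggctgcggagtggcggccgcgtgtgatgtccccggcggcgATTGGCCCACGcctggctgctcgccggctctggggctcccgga
The match covers bases 258 to 268 of the 300, just after the start of transcription. That element was found on either strand in 12 of 32851 promoters (0.0365%). The longer element of the first type, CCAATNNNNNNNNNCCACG, was found in 39 (0.119%), in 0 of the 8 promoters of the disease genes matched. It was found in 4 of 11 promoters matched for BiP and its partners (*Hspa5*, *Hsp90b1*, *Dnajc3* and *Pdia6*) and in 4 of 16 matched for glycoprotein folding and quality control (*Canx*, *Calr*, *Syvn1* and *Derl3*), in *Alg12* alone of 19 matched for the assembly of the sugar tree, and in none matched for the other lists. Among the lists, the element of the second type was found besides *Dnajb11* in *Krtcap2*, of oligosaccharyltransferase. The match to either form is a match of letters in this window.

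*Hspa5*, which encodes BiP, had normalized counts of 31778, 32774, 31977 and 32368 in wild-type, 32375, 33710, 33411 and 33625 in Pkd1-/-, and 54317, 52221, 52412 and 50919 in Pkd2-/- libraries. All Pkd2-/- libraries were above the others, and the log2 fold change came to 0.70 in Pkd2-/- (limma adjusted p = 7.97e-11) and 0.05 in Pkd1-/- cells (limma adjusted p = 0.461). Of 13 genes for BiP and its partners, 10 were higher and 1 was lower in Pkd2-/- cells, with a median of 0.32, and 4 were higher and 1 lower in Pkd1-/- cells, with a median of 0.05. Of all genes tested, 42.3% passed in Pkd2-/- cells (20% higher) and 27.1% in Pkd1-/- cells (13.6% higher). After the correction the counts in Pkd1-/- cells were 6 higher and 2 lower, beside 3310 higher and 2675 lower among all genes tested. In Pkd2-/- cells they were 11 higher and 1 lower, beside 5531 higher and 3132 lower. *Dnajc1* (0.71, limma adjusted p = 1.15e-07), a J protein, and *Hsp90b1* (0.58, limma adjusted p = 5.98e-07), the ER form of HSP90, were among those higher in Pkd2-/- cells. Both were also higher in Pkd1-/- cells (0.22, limma adjusted p = 0.02165, and 0.24, limma adjusted p = 0.007597), as was *Sdf2l1* (0.24, limma adjusted p = 0.001543). *Hyou1*, a nucleotide exchange factor of BiP, differed by 0.52 between the mutants (limma adjusted p = 8.07e-08). In the Pkd1-/- clone *Dnajb11* passed and *Hspa5* did not, and the difference between the genes was not tested.

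**Figure D4:**
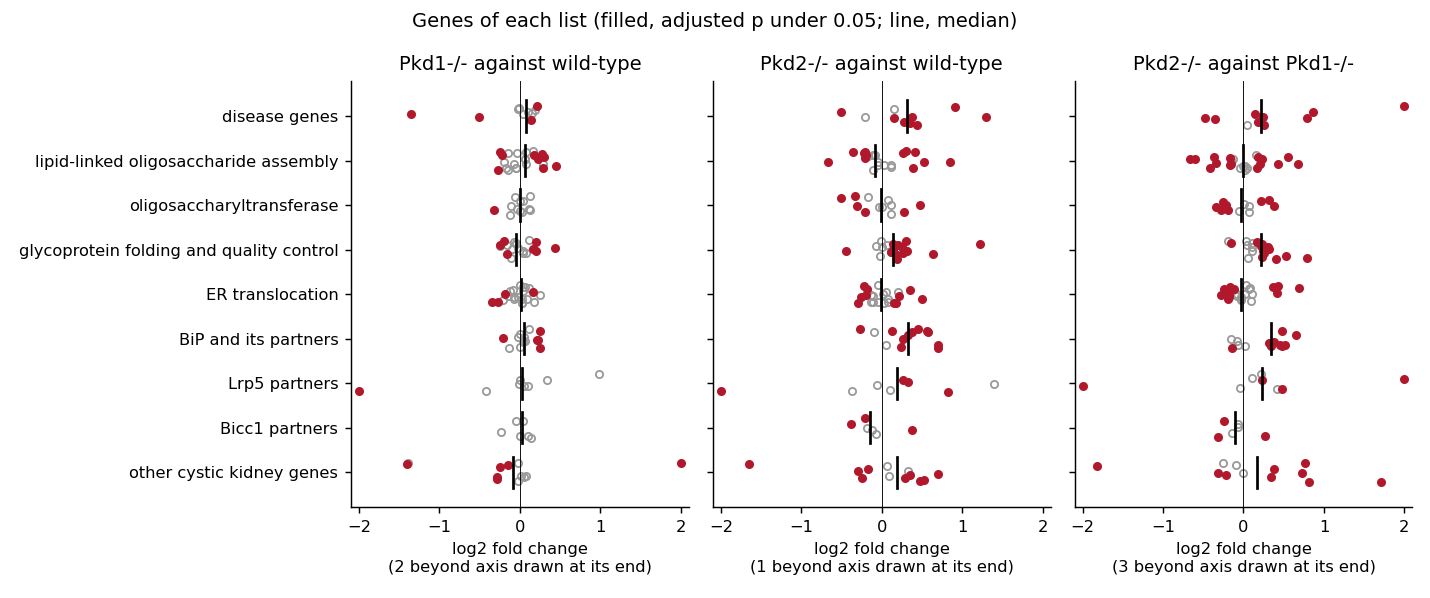
Log2 fold change of every gene tested in the 10 disease genes and in 8 lists of related genes, for Pkd1-/- and Pkd2-/- against wild-type cells and for Pkd2-/- against Pkd1-/- cells. Filled points have a limma adjusted p under 0.05, lines are medians, and values beyond 2 are drawn at the end of the axis. Filled points of BiP and its partners and of glycoprotein folding lie mostly above 0 in Pkd2-/- cells, and those of the other lists lie on both sides.

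The Sec61 channel takes new proteins into the ER, and Sec63 joins it to BiP. *Sec63* (ENSMUSG00000019802, chromosome 10 from 42761496 to 42832514, plus strand) had normalized counts of 3918, 3298, 3392 and 4018 in wild-type, 3843, 4462, 4023 and 4357 in Pkd1-/-, and 4672, 5171, 4570 and 5411 in Pkd2-/- libraries. All Pkd2-/- libraries were above the others, while Pkd1-/- and wild-type libraries overlapped. *Sec63* was 1.36-fold higher in Pkd2-/- than in wild-type cells (log2 fold change 0.44 ± 0.07, SE, limma adjusted p = 5.23e-05). In Pkd1-/- cells the value was 0.19 ± 0.07 (limma adjusted p = 0.0525), which passed when the model held only these 2 genotypes (limma adjusted p = 0.0407) and without wild-type replicate 1 (0.0368) or 4 (0.0213), Pkd1-/- replicate 1 (0.0301), or Pkd2-/- replicate 3 (0.0471) or 4 (0.0360). It also passed after the correction for exon length and GC content (0.21, limma adjusted p = 0.000551), with the same upper quartile (limma adjusted p = 0.0258) and at a minimum mean of 10 (limma adjusted p = 0.0483).

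*Sec61b* (ENSMUSG00000053317, chromosome 4 from 47474658 to 47483242, plus strand), the beta subunit of the channel, had normalized counts of 705, 832, 705 and 697 in wild-type, 892, 814, 796 and 764 in Pkd1-/-, and 729, 611, 663 and 553 in Pkd2-/- libraries. The mutants did not overlap with each other, and both overlapped with wild-type libraries. The gene was 1.28-fold lower in Pkd2-/- than in Pkd1-/- cells (log2 fold change -0.36 ± 0.08, SE, limma adjusted p = 0.00150). Against wild-type cells the values were 0.15 (limma adjusted p = 0.197) in Pkd1-/- and -0.20 (limma adjusted p = 0.0568) in Pkd2-/- cells, the latter passing without Pkd2-/- replicate 1 (limma adjusted p = 0.0141) and with scaling to the same upper quartile (limma adjusted p = 0.0353). After the correction for exon length and GC content the value in Pkd2-/- cells was -0.13 (limma adjusted p = 0.119), and the difference between the mutants was -0.23 (limma adjusted p = 0.00459). *Sec63* and *Sec61b* had opposite signs in Pkd2-/- cells.

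Other genes of ER translocation were mixed. Of 22 tested, 1 was higher and 3 were lower in Pkd1-/- cells, and 5 were higher and 5 lower in Pkd2-/- cells, with medians of 0.01 and -0.01. Among all genes tested, 27.1% and 42.3% passed in these comparisons. After the correction for exon length and GC content, the counts of this list became 4 higher and 5 lower, and 11 higher and 0 lower. Its medians were then 0.04 and 0.10, beside corrected medians of 0.03 and 0.10 over all genes tested. Corrected counts over all genes tested were 3310 higher and 2675 lower, and 5531 higher and 3132 lower. *Sec62*, which forms a complex with *Sec63*, had 13970, 12499, 11929 and 11919 normalized counts in wild-type, 10984, 11160, 10842 and 11174 in Pkd1-/-, and 17359, 18274, 18039 and 17519 in Pkd2-/- libraries. It was lower in Pkd1-/- (-0.19, limma adjusted p = 0.00763) and higher in Pkd2-/- cells (0.50, limma adjusted p = 1.06e-07), with no overlap between genotypes. *Srp72*, of the signal recognition particle, was lower in Pkd1-/- cells (-0.34, limma adjusted p = 4.13e-06), and *Spcs3*, of the signal peptidase, in Pkd2-/- cells (-0.30, limma adjusted p = 2.22e-05).

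The sugar tree is built on the lipid dolichol by a row of transferases, of which *Alg9* adds mannose and *Alg8* adds glucose. *Alg9* (ENSMUSG00000032059, chromosome 9 from 50775019 to 50843542, plus strand) had normalized counts of 843, 962, 830 and 898 in wild-type, 845, 847, 945 and 830 in Pkd1-/-, and 663, 686, 553 and 582 in Pkd2-/- libraries. Every Pkd2-/- library was below all others, which overlapped. *Alg9* was 1.42-fold lower in Pkd2-/- than in wild-type cells (log2 fold change -0.51 ± 0.08, SE, limma adjusted p = 1.88e-05), and the value in Pkd1-/- cells was -0.03 ± 0.08 (limma adjusted p = 0.848). *1110032A03Rik*, on the opposite strand, shares 500 exon bases with *Alg9* and had 227 to 337 normalized counts. Whether counting used the strand is not given in the sources used here, so reads of the shared bases may belong to either gene.

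*Alg8* (ENSMUSG00000035704, chromosome 7 from 97371606 to 97392185, plus strand) had the smallest range of genotype means among the 10 genes as deposited, though not after the correction below. Its normalized counts were 522, 489, 534 and 490 in wild-type, 591, 532, 508 and 559 in Pkd1-/-, and 533, 581, 538 and 610 in Pkd2-/- libraries, and all 3 genotypes overlapped. The log2 fold changes of 0.10 ± 0.07 (SE) in Pkd1-/- and 0.15 ± 0.07 in Pkd2-/- cells did not pass (limma adjusted p = 0.307 and 0.0926). After the correction for exon length and GC content they were 0.18 and 0.30 and both passed (limma adjusted p = 0.0420 and 0.000578). *Alg8* and *Alg9* had opposite signs in Pkd2-/- cells under both.

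Of 23 other genes of this assembly line, 6 were higher and 3 lower in Pkd1-/- cells, with a median of 0.06. In Pkd2-/- cells 6 were higher and 7 lower, with a median of -0.09. Among all genes tested, 27.1% and 42.3% passed in these comparisons, and among those of like level 37.9% and 60.3%. The correction turned the counts of the list in Pkd2-/- cells to 9 higher and 2 lower, beside 5531 higher and 3132 lower among all genes tested. *Alg14*, part of the second step on dolichol, was lower in Pkd2-/- cells (-0.67, limma adjusted p = 2.89e-07), and *Dpm1*, which makes the mannose donor, was higher (0.85, limma adjusted p = 1.00e-04). *Mpi*, a mannose phosphate isomerase, was higher in Pkd1-/- cells (0.44, limma adjusted p = 0.000172). Of the 12 genes of oligosaccharyltransferase, which moves the tree onto proteins, 1 passed in Pkd1-/- cells, *Ost4* (-0.32, limma adjusted p = 0.00176). In Pkd2-/- cells, 2 were higher and 4 lower, with a median of -0.01. After the correction 6 were higher and 2 lower, beside the 5531 higher and 3132 lower among all genes tested. The shares of all genes tested that passed were, as above, 27.1% in Pkd1-/- and 42.3% in Pkd2-/- cells. *Rpn2* was higher (0.48, limma adjusted p = 1.77e-07), and the small subunit genes *Ost4* (-0.51, limma adjusted p = 8.02e-06) and *Ostc* (-0.33, limma adjusted p = 9.35e-05) were lower.

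The 10 genes differed widely in level. Per kb of exon, wild-type cells held 3277 ± 126 normalized counts (SD, n = 4) of *Ganab*, 2466 ± 170 of *Bicc1*, 1620 ± 34.8 of *Dnajb11* and 1146 ± 78.8 of *Prkcsh*. *Lrp5* followed with 679.7 ± 39.1, *Sec61b* with 578.1 ± 51.1, *Sec63* with 416.1 ± 41.4, *Alg9* with 227.1 ± 15.5 and *Alg8* with 182.7 ± 8.18 per kb. *Pkhd1* was lowest, with 41.6 ± 5.94. Among neighbours in this order, the ranges of *Lrp5* and *Sec61b* overlapped, and the other neighbours did not. In Pkd1-/- cells *Dnajb11* (1870 ± 38.2 per kb) stood above *Bicc1* (1726 ± 53.7 per kb), and in Pkd2-/- cells *Alg8* (203.1 ± 13.2 per kb) stood above *Alg9* (159.7 ± 16.4 per kb), both without overlap. In Pkd2-/- cells *Lrp5* (1275 ± 64.3 per kb) reached the range of *Prkcsh* (1278 ± 47.1 per kb). *Pkhd1* remained last in every genotype, with 16.2 ± 2.32 per kb in Pkd1-/- and 102.6 ± 13.9 per kb in Pkd2-/- cells.

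**Figure D5:**
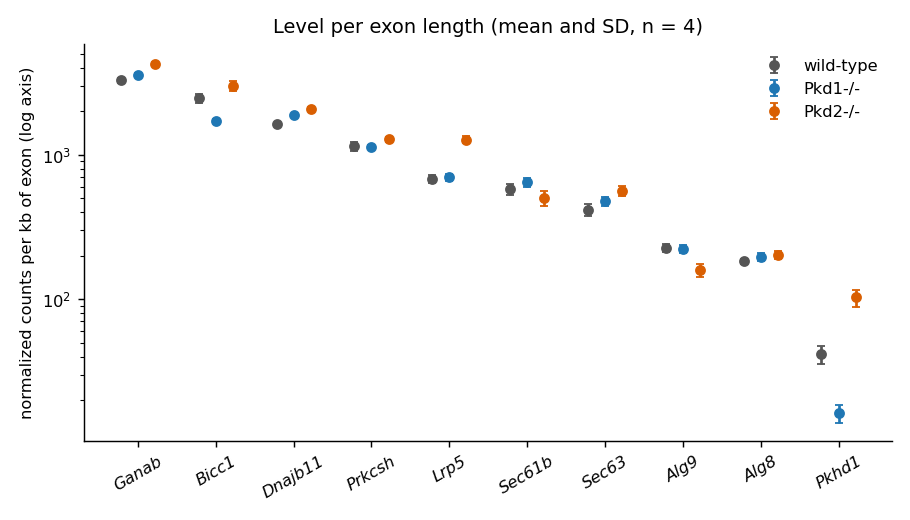
Normalized counts per kb of exon, on a log axis, for the 10 genes in the order of their wild-type level, with points for the mean and error bars for the SD (n = 4 libraries) in each genotype. *Pkhd1* lies at the bottom in all 3 genotypes, between 16.2 and 102.6 per kb, and *Lrp5* rises to the level of *Prkcsh* in Pkd2-/- cells.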

How the data were processed

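RNA of 12 mIMCD3 dishes, 4 per genotype, was sequenced on an Illumina HiSeq2500. The authors used Trim Galore for trimming, HISAT2 for alignment to GRCm38, htseq-count for counting per gene and DESeq2 for scaling. The annotation they used and their strand setting are not given in the sources used here. The deposited values are a score, normalized counts that the authors rounded to whole numbers, so read counts were not modelled. The counting intervals of *Sostdc1* and *Dkk3* are binomial intervals that treat the summed normalized counts as reads. The table pairs no symbols with its identifiers; positions, exon lengths and symbols come from GENCODE M21 (GRCm38), which holds 47223 of the 47642 identifiers. Reads per library were estimated from what 1 read is worth among low values.

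Genotypes were compared with limma 3.58.1 in R 4.3.3 (lmFit, eBayes with trend), on log2(normalized count + 1), for 18552 genes whose mean reached 1, with all 12 libraries in 1 model, two-sided, adjusted by Benjamini-Hochberg within each comparison. A fold change on this scale understates changes of low genes. Medians within 5 Mb and over a chromosome cover genes with a mean of at least 10, without the gene followed. Single genes were also tested by a two-sided exact permutation test. The script was tested on simulated data. Further tools were Python 3.11.15, pandas 2.3.3 and scipy 1.17.1.

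The 10 genes, the gene lists, the motifs and the tests were chosen with earlier results of these data known. Named were all 10 genes, up to 3 genes per list and comparison with the largest change among those passing with a mean of at least 10, the 3 genes most like *Pkhd1* and *Lrp5*, genes that overlap one of the 10, and *Pkd1* and *Pkd2*. *Lrp6*, *Hspa5* in Pkd1-/- cells and single cell type markers such as *Lrp2* are named outside that rule, after their values were seen. Some items are not reported here. Replicate numbers did not pair the libraries: deviations of same-numbered libraries correlated at -0.073 to 0.2, with 2 of 12 pairs over 0.1. Alternatives were pseudocounts of 0.5 and 5, no filter or a minimum mean of 10, a replicate block, only the 2 genotypes compared, scaling to the same upper quartile, no variance trend, leaving out each library, and, chosen after seeing the data, a per-library correction for exon length and GC content.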

Additional observations from a re-analysis of the deposited data

Results flagged for a closer look

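Among 30 sets of 4 libraries, 1 for each of the 10 genes in each genotype, 2 held a library far from the other 3, by Dixon's ratio of the gap to the range; chance alone flags about 1 in 20 such sets. *Alg9* had 945 normalized counts in Pkd1-/- replicate 3, against 830 to 847 in the other 3 libraries. *Sec61b* had 832 normalized counts in wild-type replicate 2, against 697 to 705 in the others. Neither gene passed in Pkd1-/- against wild-type cells with or without that library.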

How the results depend on the processing

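The number of the 10 genes passing stayed within 3 to 6 in Pkd1-/- and 7 to 9 in Pkd2-/- cells against wild-type, and 7 to 9 between the mutants, over all alternatives. *Pkhd1* alone met the fold threshold in each of them. With a replicate block, 5, 9 and 9 genes passed; the numbers do not pair the libraries. Values near 0 changed sign. *Alg9* in Pkd1-/- cells was 0.0229 after the correction for exon length and GC content and -0.0688 to 0.0152 with 1 library left out. *Lrp5* in Pkd1-/- cells was -0.0064 after the correction. *Prkcsh* in Pkd1-/- cells was -0.053 to 0.0158 with 1 library left out. Of the list counts, those in Pkd1-/- cells moved most. The correction gave 3 genes passing for oligosaccharyltransferase, 9 for ER translocation, 8 for BiP and its partners and 1 for Bicc1 partners. Over all genes tested it gave 3310 higher and 2675 lower in Pkd1-/- cells. The replicate block gave 2 for Lrp5 partners and 1 for Bicc1 partners, and a model of only the 2 genotypes gave 2 for Lrp5 partners. With 1 library left out, the counts were 1 to 2 for oligosaccharyltransferase, 1 to 2 for Lrp5 partners and 0 to 1 for Bicc1 partners in Pkd1-/- cells, and 7 to 11 for ER translocation between the mutants (7 without Pkd1-/- replicate 3). *Ganab* in Pkd1-/- cells also missed the threshold without a filter (limma adjusted p = 0.0573) and without a variance trend (0.0507), and *Prkcsh* between the mutants with the upper quartile (0.0503). The cause of these moves was not tested.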
